A study of Mus musculus with 8 samples.

Results

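Signals of 10 keratin and junction genes of simple epithelia were followed across mouse embryonic stem cells with and without a component of Polycomb repressive complex 2 (PRC2): the keratins Krt7, Krt8, Krt18 and Krt19, the claudins Cldn4, Cldn6 and Cldn7, the adhesion genes Cdh1 and Epcam, and the desmosome gene Dsp. The members were taken by gene symbol, and the list was selected on signals in the 4 groups, so that their own differences between groups are given as a description without a test. They are read by 14 of the 22626 probe sets on the array besides controls, and are 10 of the 12393 genes named by 1 symbol. Krt8 and Dsp have 3 probe sets each and the other 8 genes have 1. Where a gene has several, the brightest over all 8 arrays stands for it.

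The groups were Ezh2-/- cells, Eed-/- cells, cells labelled Jarid2-/- and wild type cells, each with 2 Affymetrix Mouse430A_2 arrays. Every group carries the strain label cj7, a mouse stem cell line, and was grown untreated with fetal calf serum at 15% and with the cytokine LIF at 1000 U/ml, which holds mouse stem cells undifferentiated. The deleted part of each gene, the number of clones per genotype and the culture behind each array are not given in the sources used here. Genotype and cell line therefore cannot be told apart, and the spread between 2 arrays may be technical.

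Array medians lay between 322.9 and 351.5 units of deposited intensity, and the negative controls, 3 probe sets for a bacterial RNA, spanned 23.8 to 148. Precision is limited by the number of arrays. Ezh2 averaged 696 in Ezh2-/- cells and 4798 in wild type, and Eed averaged 3611 in Eed-/- cells and 10270 in wild type. Ezh2 was also lower in the arrays labelled Jarid2-/-, with 2926 and 3121 (log2 -0.66 against wild type, limma adjusted p = 0.00146), and averaged 5011 in Eed-/- cells. Its part in the differences of that group was not tested. Jarid2 at its brightest probe set averaged 9465 in the arrays labelled Jarid2-/- and 7954 in wild type, so that the signal did not check this label, and the group is called by its label throughout. All 11 measured markers of pluripotent stem cells, Pou5f1 and Nanog among them, read above every negative control on each of the 8 arrays. Against wild type, 5 of the 11 were higher and 1 lower in Ezh2-/- cells at an adjusted p under 0.05 (limma). That is 45.5% and 9.09%, beside 9.67% and 17.9% of all genes. In Eed-/- cells 1 was higher and 0 lower (9.09% and 0%, beside 7.88% and 11.1% of all genes). In the arrays labelled Jarid2-/- 1 was higher and 1 lower (9.09% each, beside 5.99% and 14.2%). The marker that was lower, in the same 2 mutants as the keratins, was Zfp42 (Rex1). It read 3714 and 3989 in Ezh2-/- cells, 17260 and 18660 in Eed-/- cells, 3726 and 3283 in the arrays labelled Jarid2-/-, and 18004 and 18757 in wild type.

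Keratins are the intermediate filament proteins of epithelial cells, and they form filaments only as pairs of a type II and a type I chain. Krt8 and Krt7 encode type II chains, Krt18 and Krt19 type I chains, and the pair of Krt8 and Krt18 is the first to appear in the mouse embryo, in the trophectoderm that surrounds the inner cell mass. Desmoplakin, the product of Dsp, ties such filaments to desmosomes, claudins seal tight junctions, and E-cadherin, the product of Cdh1, holds cells together at adherens junctions. PRC2 methylates histone H3 at lysine 27 and keeps many developmental genes silent. EZH2 is its catalytic subunit, EED binds the methylated histone and is needed for the activity of the complex, and JARID2 is an accessory subunit that helps to bring the complex to its sites.

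The promoters of 4 members are shown because these genes stand for the 3 patterns described below: the filament pair Krt8 and Krt18, their desmosomal anchor Dsp, and Epcam, which was higher in every mutant. The sequences are from RefSeq on GRCm38.p6 and run from 250 bases before to 50 bases after the annotated start. Krt8 lies at chr15:102004293-102004592 on the minus strand. Krt18 lies at chr15:102027966-102028265 on the plus strand. Dsp lies at chr13:38151044-38151343 on the plus strand. Epcam lies at chr17:87635729-87636028 on the plus strand. Capitals mark matches to any of 7 motifs searched on both strands, which are the TATA box TATAAA, the CCAAT box CCAAT, the GC box GGGCGG, the AP-1 motif TGANTCA, the E-box CAGGTG read by Snail factors, the AP-2 motif GCCNNNGGC and the Grainyhead motif AACCNGTT.
Krt8: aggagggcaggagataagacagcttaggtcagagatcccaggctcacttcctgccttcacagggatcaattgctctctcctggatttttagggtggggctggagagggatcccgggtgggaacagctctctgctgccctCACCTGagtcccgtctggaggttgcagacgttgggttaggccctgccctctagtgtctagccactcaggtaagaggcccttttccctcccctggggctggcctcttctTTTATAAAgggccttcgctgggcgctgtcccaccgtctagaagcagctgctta
Krt18: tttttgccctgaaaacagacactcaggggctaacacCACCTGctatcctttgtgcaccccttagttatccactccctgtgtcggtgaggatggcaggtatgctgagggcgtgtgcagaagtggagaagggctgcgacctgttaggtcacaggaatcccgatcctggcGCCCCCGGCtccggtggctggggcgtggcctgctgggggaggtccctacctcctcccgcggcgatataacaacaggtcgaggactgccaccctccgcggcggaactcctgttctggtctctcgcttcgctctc
Dsp: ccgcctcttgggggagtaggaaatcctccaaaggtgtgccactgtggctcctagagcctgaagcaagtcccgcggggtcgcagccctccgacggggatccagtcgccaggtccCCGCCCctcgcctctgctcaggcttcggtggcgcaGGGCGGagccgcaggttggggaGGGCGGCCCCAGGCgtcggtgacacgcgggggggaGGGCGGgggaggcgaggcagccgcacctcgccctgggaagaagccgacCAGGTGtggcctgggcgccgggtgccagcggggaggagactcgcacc
Epcam: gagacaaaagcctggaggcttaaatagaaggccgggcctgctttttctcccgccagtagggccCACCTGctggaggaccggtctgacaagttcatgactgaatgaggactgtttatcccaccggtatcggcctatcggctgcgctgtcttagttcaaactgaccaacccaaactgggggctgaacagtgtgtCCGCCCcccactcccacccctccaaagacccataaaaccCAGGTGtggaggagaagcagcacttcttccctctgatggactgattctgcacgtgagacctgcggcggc
The E-box CAGGTG was present in all 4 sequences, with 2 matches in Epcam and 1 in each of the others, and it occurs in 20.2% of 32851 mouse promoters of this length. The TATA box was matched in Krt8 alone of the 4, as 2 overlapping matches on opposite strands beside the annotated start, and occurs in 13.6% of all promoters. The AP-2 motif had 1 match in Krt18 and 1 in Dsp, where it overlaps a GC box, beside 16.6% of all promoters with a match. GC boxes numbered 4 in Dsp and 1 in Epcam, with 35.7% of all promoters holding one. Base composition differed widely among them: the Dsp promoter was 73.0% G and C with 27 CpG dinucleotides, Krt18 61.3% with 17, Krt8 58.0% with 6 and Epcam 57.0% with 11, where the median over all promoters was 52.7% and 7. A match is a description of letters and not of a bound site. Over all 9 promoters of the 8 members matched, the E-box was found in 8, the AP-1 motif at 2 places in Cldn4 (7.81% of all promoters hold one), and the CCAAT box and the Grainyhead motif in 0 (37.4% and 2.09%). Krt19 and Cdh1 had no entry in the table used.

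The 10 genes did not move as 1 group. Krt8, Krt18, Krt19 and Dsp were low in Ezh2-/- cells and in the arrays labelled Jarid2-/-, and their mean signal in Eed-/- cells was less far below wild type. For Krt19 both Eed-/- arrays still lay below both wild type arrays. Krt7 stood above the negative controls in both Eed-/- arrays and in 1 wild type array only. Cdh1 was lower and Epcam higher in all 3 mutants, and the 3 claudins were higher in Eed-/- cells than in wild type. Differences are on the scale of log2(intensity + 16), which understates those of dim genes, and SE is the standard error of the linear model. The 3 comparisons share their wild type arrays and are set side by side only.

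**Figure D1:**
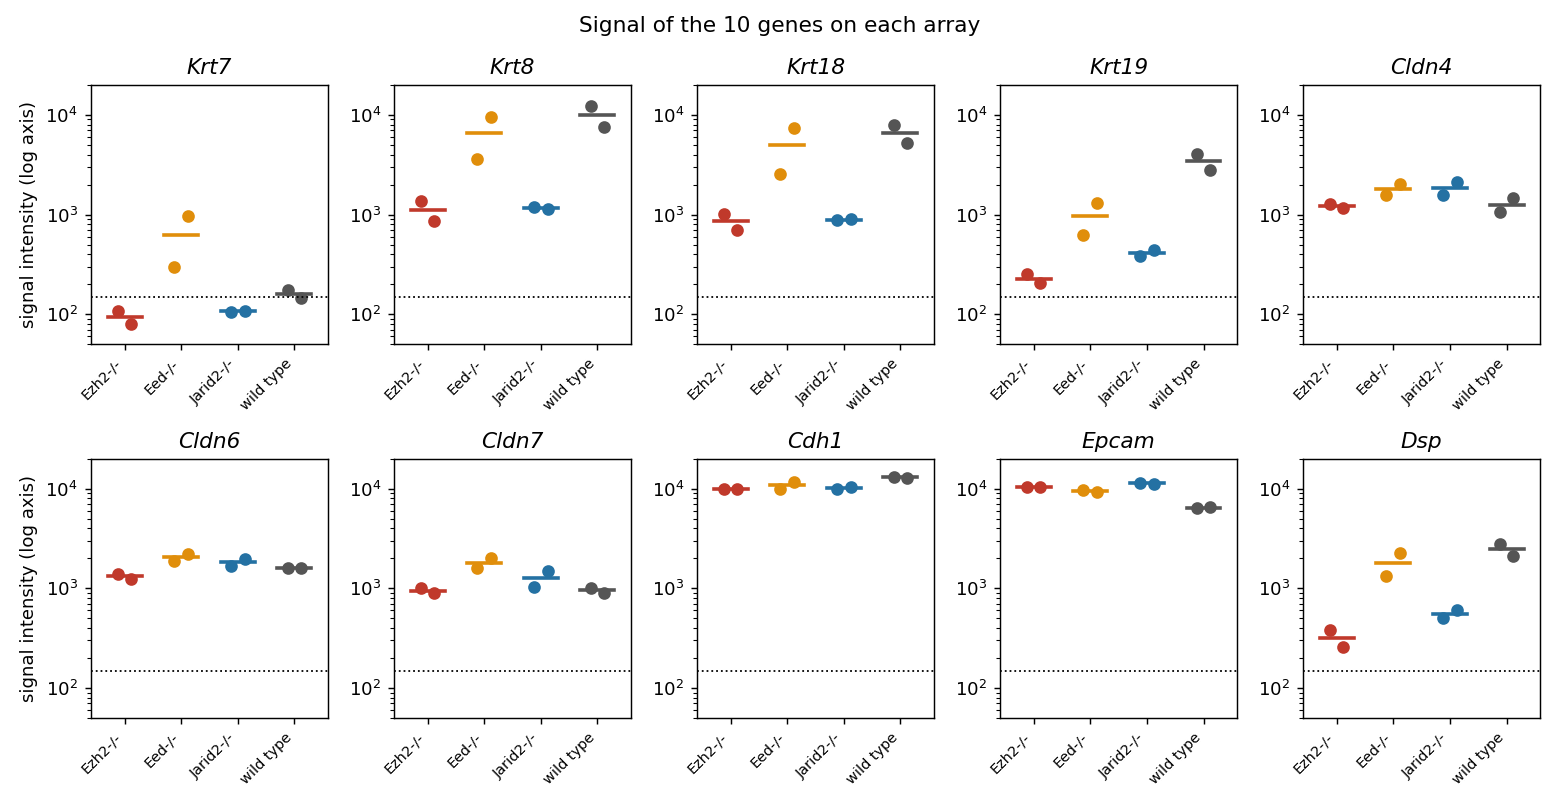
Deposited signal intensity (log axis) of the 10 genes at their brightest probe set, 1 panel per gene, by group (Ezh2-/-, Eed-/-, Jarid2-/- as labelled, wild type). Each point is 1 array, each bar a group mean (n = 2) and the dotted line the highest negative control; Krt8 stands at 872 and 1362 in Ezh2-/- cells and at 7642 and 12399 in wild type, and Krt7 is above the line in both Eed-/- arrays.

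Krt8 and Krt18, the chains of 1 filament pair whose genes are neighbours on chromosome 15, had nearly the same pattern. Krt8 read 1362 and 872 in Ezh2-/- cells, 3649 and 9441 in Eed-/- cells, 1198 and 1132 in the arrays labelled Jarid2-/-, and 12399 and 7642 in wild type. Both Ezh2-/- arrays and both arrays labelled Jarid2-/- lay far below the lower wild type array, and the Eed-/- arrays fell 1 below and 1 within the wild type range. The log2 difference from wild type was -3.14 (SE 0.40) in Ezh2-/- cells, an 8.81-fold lower signal, and -3.05 (SE 0.40) in the arrays labelled Jarid2-/-, 8.26-fold lower. In Eed-/- cells it was -0.73 (SE 0.40), a difference below the spread between the Eed-/- arrays. The other 2 Krt8 probe sets gave -3.19 and -3.15 in Ezh2-/- cells, -0.74 and -0.73 in Eed-/- cells, and -3.13 and -3.09 in the arrays labelled Jarid2-/-. Both carry the suffix x, which marks probes that can also bind related transcripts.

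Krt18 read 1012 and 695 in Ezh2-/- cells, 2581 and 7450 in Eed-/- cells, 888 and 898 in the arrays labelled Jarid2-/-, and 7898 and 5190 in wild type. The order of the arrays was that of Krt8 except between the arrays labelled Jarid2-/-, which differed by 0.02 on the log2 scale. Against wild type the log2 difference of Krt18 was -2.91 (SE 0.41) in Ezh2-/- cells, -0.54 (SE 0.41) in Eed-/- cells and -2.82 (SE 0.41) in the arrays labelled Jarid2-/-. The Eed-/- value turned on 1 array for both genes. Without Eed-/- replicate 1 it was -0.04 for Krt8 and 0.22 for Krt18, and without Eed-/- replicate 2 it was -1.41 and -1.31.

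Krt19, a type I chain without a tail domain whose gene is on chromosome 11, was the keratin with the greatest differences from wild type in Ezh2-/- and Eed-/- cells. It read 253 and 204 in Ezh2-/- cells, 622 and 1317 in Eed-/- cells, 387 and 438 in the arrays labelled Jarid2-/-, and 4054 and 2792 in wild type. All 6 mutant arrays lay below both wild type arrays, and those of the 3 mutants did not overlap with each other. The log2 difference was -3.80 (SE 0.30) in Ezh2-/- cells, a 13.9-fold lower signal, -1.87 (SE 0.30) in Eed-/- cells, 3.66-fold lower, and -2.98 (SE 0.30) in the arrays labelled Jarid2-/-, 7.91-fold lower. Leaving out 1 array at a time kept the Eed-/- difference between -2.41 and -1.34.

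Krt7, the type II chain usually found in ducts, bladder and trophoblast, went the other way in Eed-/- cells. It read 108 and 80.4 in Ezh2-/- cells, 298 and 960 in Eed-/- cells, 105 and 109 in the arrays labelled Jarid2-/-, and 177 and 145 in wild type. Only the Eed-/- arrays and wild type replicate 1 stood above the highest negative control, so that the log2 differences of -0.69 in Ezh2-/- cells and -0.52 in the arrays labelled Jarid2-/- (SE 0.41 each) are partly set by background. Both Eed-/- arrays were above both wild type arrays, by 1.65 on the log2 scale (SE 0.41). Most of that difference came from Eed-/- replicate 2: it was 0.84 without this array and 2.47 without Eed-/- replicate 1.

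Dsp, the desmosomal plakin on chromosome 13, followed the keratin pair with smaller differences in the arrays labelled Jarid2-/-. Its brightest probe set read 379 and 259 in Ezh2-/- cells, 1340 and 2285 in Eed-/- cells, 502 and 613 in the arrays labelled Jarid2-/-, and 2813 and 2122 in wild type. The Eed-/- arrays lay 1 within and 1 below the wild type range, and the other mutant arrays all below it. Against wild type the log2 difference was -2.90 (SE 0.26) in Ezh2-/- cells, -0.48 (SE 0.26) in Eed-/- cells and -2.11 (SE 0.26) in the arrays labelled Jarid2-/-. The second probe set gave -2.77 in Ezh2-/- cells, -0.22 in Eed-/- cells and -1.97 in the arrays labelled Jarid2-/- (SE 0.27 each). The third read 93.4 to 150 over all arrays, at the level of the negative controls, and is not interpreted. Leaving out 1 array at a time moved the Eed-/- difference of the brightest probe set between -0.86 and -0.10.

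In these bulk samples fewer cells with keratin filaments and less keratin RNA in each cell cannot be told apart.

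**Figure D2:**
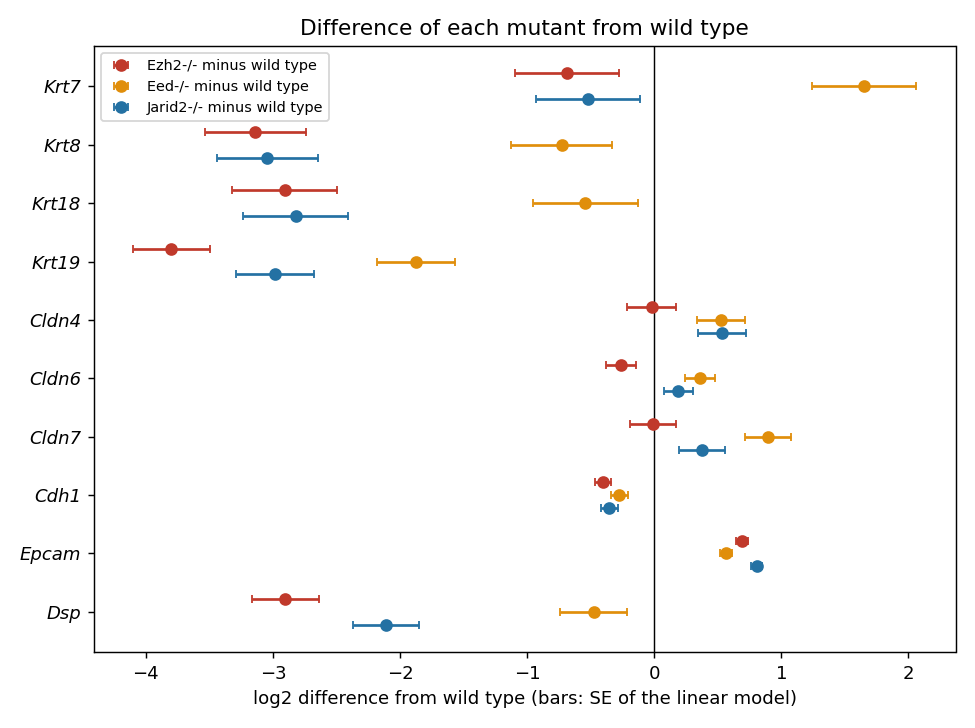
Log2 difference from wild type (horizontal axis) of the 10 genes at their brightest probe set (rows) in Ezh2-/- (red), Eed-/- (orange) and Jarid2-/- as labelled (blue). Points are differences of group means and bars the SE of the linear model; Krt8, Krt18 and Krt19 lie between -3.80 and -2.82 in Ezh2-/- and Jarid2-/-, and Epcam is above 0 in all 3.

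The claudins, 4-pass membrane proteins of tight junctions, had a narrow range. Cldn7 on chromosome 11 read 1001 and 901 in Ezh2-/- cells, 1594 and 1997 in Eed-/- cells, 1025 and 1508 in the arrays labelled Jarid2-/-, and 1014 and 897 in wild type. Its Eed-/- arrays stood above both wild type arrays, by 0.89 on the log2 scale (SE 0.18), and the Ezh2-/- arrays overlapped wild type, with a difference of -0.01 (SE 0.18). In the arrays labelled Jarid2-/- the difference was 0.38 (SE 0.18), 0.10 without replicate 2 and 0.65 without replicate 1.

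Cldn4 on chromosome 5 read 1284 and 1176 in Ezh2-/- cells, 1590 and 2044 in Eed-/- cells, 1561 and 2109 in the arrays labelled Jarid2-/-, and 1064 and 1461 in wild type. The wild type arrays themselves differed by 0.45 on the log2 scale, beside differences from wild type of -0.02 in Ezh2-/- cells, 0.53 in Eed-/- cells and 0.54 in the arrays labelled Jarid2-/- (SE 0.19 each). Cldn6, a claudin of early embryonic epithelium on chromosome 17, read 1396 and 1252 in Ezh2-/- cells, 1894 and 2201 in Eed-/- cells, 1671 and 1965 in the arrays labelled Jarid2-/-, and 1582 and 1592 in wild type. Its differences were the smallest among the claudins in Eed-/- cells and in the arrays labelled Jarid2-/-, at 0.36 and 0.19, and -0.26 in Ezh2-/- cells (SE 0.12 each). For all 3 claudins the Ezh2-/- arrays were below both Eed-/- arrays.

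Cdh1 and Epcam, both surface adhesion molecules that undifferentiated mouse stem cells make, were opposite in direction. Replicates were close, except that the Eed-/- arrays of Cdh1 differed by 0.21 on the log2 scale. Cdh1, on chromosome 8, read 9899 and 9869 in Ezh2-/- cells, 10033 and 11630 in Eed-/- cells, 9999 and 10458 in the arrays labelled Jarid2-/-, and 13250 and 12886 in wild type. All 6 mutant arrays lay below both wild type arrays, with log2 differences of -0.40 in Ezh2-/- cells, -0.27 in Eed-/- cells and -0.35 in the arrays labelled Jarid2-/- (SE 0.07 each). The mutant means were 75.6%, 82.9% and 78.3% of the wild type mean. Without Eed-/- replicate 2 the difference in Eed-/- cells was -0.38, and without Eed-/- replicate 1 it was -0.17.

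Epcam, a calcium-independent adhesion molecule whose gene is on chromosome 17, read 10400 and 10437 in Ezh2-/- cells, 9723 and 9366 in Eed-/- cells, 11353 and 11244 in the arrays labelled Jarid2-/-, and 6347 and 6558 in wild type. All 6 mutant arrays lay above both wild type arrays and the 3 mutants did not overlap with each other. The log2 difference was 0.69 in Ezh2-/- cells, 0.56 in Eed-/- cells and 0.81 in the arrays labelled Jarid2-/- (SE 0.05 each), which is 1.61-fold, 1.48-fold and 1.75-fold higher. The spread between replicate arrays was at most 0.05 on this scale.

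For the keratins and Dsp, Ezh2-/- cells differed more from Eed-/- cells than the arrays labelled Jarid2-/- did. Ezh2-/- minus Eed-/- was -2.42 for Dsp, -2.41 for Krt8, -2.36 for Krt18, -2.34 for Krt7 and -1.92 for Krt19, and -0.90 for Cldn7. The arrays labelled Jarid2-/- minus Eed-/- gave -2.32 for Krt8, -2.28 for Krt18, -2.17 for Krt7, -1.63 for Dsp and -1.11 for Krt19. The size of these depended on the Eed-/- array kept: without 1 array, the arrays labelled Jarid2-/- minus Eed-/- ran up to -1.63 for Krt8, between -3.04 and -1.52 for Krt18, -2.99 and -1.36 for Krt7, -2.01 and -1.25 for Dsp, and -1.64 and -0.58 for Krt19. Ezh2-/- minus Eed-/- ran between -3.10 and -1.73 for Krt8, -3.13 and -1.60 for Krt18, -3.16 and -1.52 for Krt7, and -2.46 and -1.39 for Krt19. Between the arrays labelled Jarid2-/- and Ezh2-/- cells the keratin pair differed by less than its SE, with 0.09 for Krt8 and 0.09 for Krt18 (SE 0.40 and 0.41), while Krt19 was 0.82 and Dsp 0.79 higher in the arrays labelled Jarid2-/-. Cdh1 differed between any 2 mutants by 0.13 or less.

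The keratins varied widely between replicates in 3 of the 4 groups. In Eed-/- cells replicate 2 exceeded replicate 1 by 1.63 on the log2 scale for Krt7, 1.52 for Krt18, 1.37 for Krt8, 1.06 for Krt19 and 0.76 for Dsp. Of 5929 genes with a mean signal above 500, 99.9% had a smaller absolute difference between these arrays than Krt8. In wild type the second replicate was lower, by -0.70 for Krt8, -0.60 for Krt18, -0.54 for Krt19 and -0.40 for Dsp, and in Ezh2-/- cells by -0.63 for Krt8, -0.53 for Krt18 and -0.52 for Dsp. The arrays labelled Jarid2-/- differed by -0.08 for Krt8 and 0.02 for Krt18, and there 34.9% and 7.29% of the 5929 genes had a smaller difference. The spiked-in bacterial RNA dap differed between replicates in the direction of Krt8 in Ezh2-/-, Eed-/- and wild type, with 3376 and 2870 in Ezh2-/-, 3117 and 3605 in Eed-/- and 3502 and 2279 in wild type. It read 1834 and 1942 in the arrays labelled Jarid2-/-. The signal of 18S ribosomal RNA was higher in replicate 2 in every group, with 7585 and 12894 in wild type and 10299 and 11940 in Ezh2-/-. The part of either in the keratin differences was not tested. Cdh1 had the signs of Krt8 in Ezh2-/-, Eed-/- and wild type with smaller steps, 0.00 in Ezh2-/-, 0.21 in Eed-/- and -0.04 in wild type, and Epcam the opposite signs there with at most 0.05.

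The genes whose profile over the 8 arrays was most like that of Krt8, among 5928 others with a mean signal above 500, were led by Anxa3 (Pearson r = 0.9987), which encodes a calcium-dependent membrane-binding annexin. Krt18 came next with r = 0.9982, followed by the chromatin protein gene Hmgn3 (0.9932), the annexin gene Anxa2 (0.9889), Phldb2 (0.9867), the matrix glycoprotein gene Thbs1 (0.9863), the protease gene Prss23 (0.9854), the smooth muscle actin gene Acta2 (0.9848) and the collagen receptor gene Ddr1 (0.9792). Dsp was at rank 17 with 0.9711 and Krt19 at rank 56 with 0.9369. The 8 points come as 4 groups of 2 arrays, so that the coefficients mainly follow the group means and are given without a p.

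Anxa3 showed the same step between Eed-/- arrays as Krt8. It read 537 and 389 in Ezh2-/- cells, 1124 and 2579 in Eed-/- cells, 457 and 462 in the arrays labelled Jarid2-/-, and 3438 and 2106 in wild type. The genes most like Cdh1 were the mitotic kinesin gene Kif11 (0.9904), the nuclear export receptor gene Xpo1 (0.9893), Pja1 (0.9863), the desmosomal plakophilin gene Pkp2 (0.9808) and Scoc (0.9798), and Epcam was among the least like it, at -0.9271. Among the claudins r was 0.8962 between Cldn6 and Cldn7 and 0.8413 between Cldn4 and Cldn6.

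**Figure D3:**
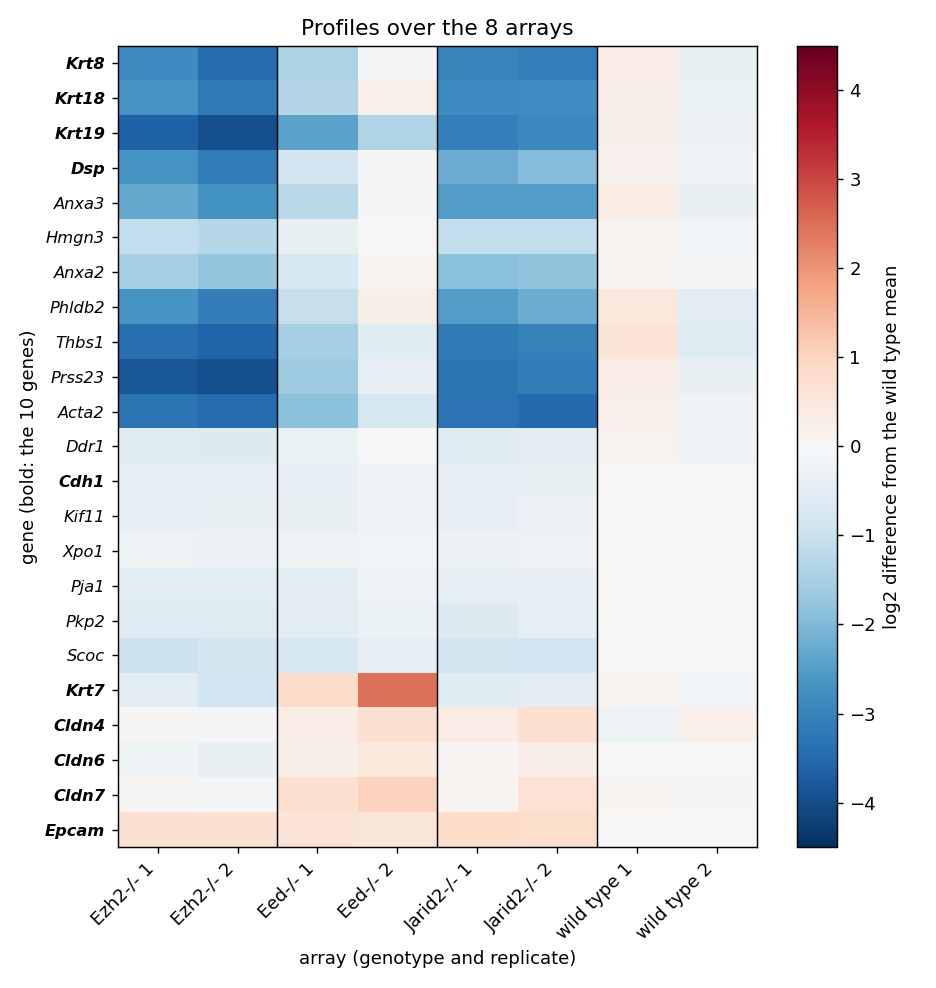
Log2 difference of each array (columns) from the wild type mean of the same gene (rows, the 10 genes in bold), as colour from blue (lower) to red (higher), with the genes most like Krt8 and most like Cdh1 below each. The rows of Krt8, Krt18, Krt19, Dsp and Anxa3 are dark blue in both Ezh2-/- and both Jarid2-/- arrays and paler in Eed-/- replicate 2 than in Eed-/- replicate 1.

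Other genes of epithelial structure were taken from lists of other keratins, tight junction, adherens junction and desmosome genes, and epithelial surface and regulator genes. Of 114 listed genes 97 were measured. At an adjusted p under 0.05 in the limma fit, 12 were higher and 16 lower in Ezh2-/- cells than in wild type, and 69 did not pass. That is 12.4% higher and 16.5% lower, where 9.67% of all genes were higher and 17.9% lower, and the median log2 difference was -0.03 beside -0.08 over all genes. In Eed-/- cells 15 were higher, 5 lower and 77 did not pass, 15.5% and 5.15% beside 7.88% and 11.1% of all genes, with a median of -0.02 beside -0.06. The arrays labelled Jarid2-/- had 13 higher, 12 lower and 72 not passing, 13.4% and 12.4% beside 5.99% and 14.2% of all genes, with a median of -0.13 beside -0.08. Other scalings moved these splits. With quantile normalization it was 16 higher and 11 lower in Ezh2-/- cells and 16 and 8 in the arrays labelled Jarid2-/-, and with equal array medians 15 and 10, and 17 and 9. The count of passing genes was 15 without Ezh2-/- replicate 2, and 12 in Eed-/- cells without either Eed-/- array.

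**Figure D4:**
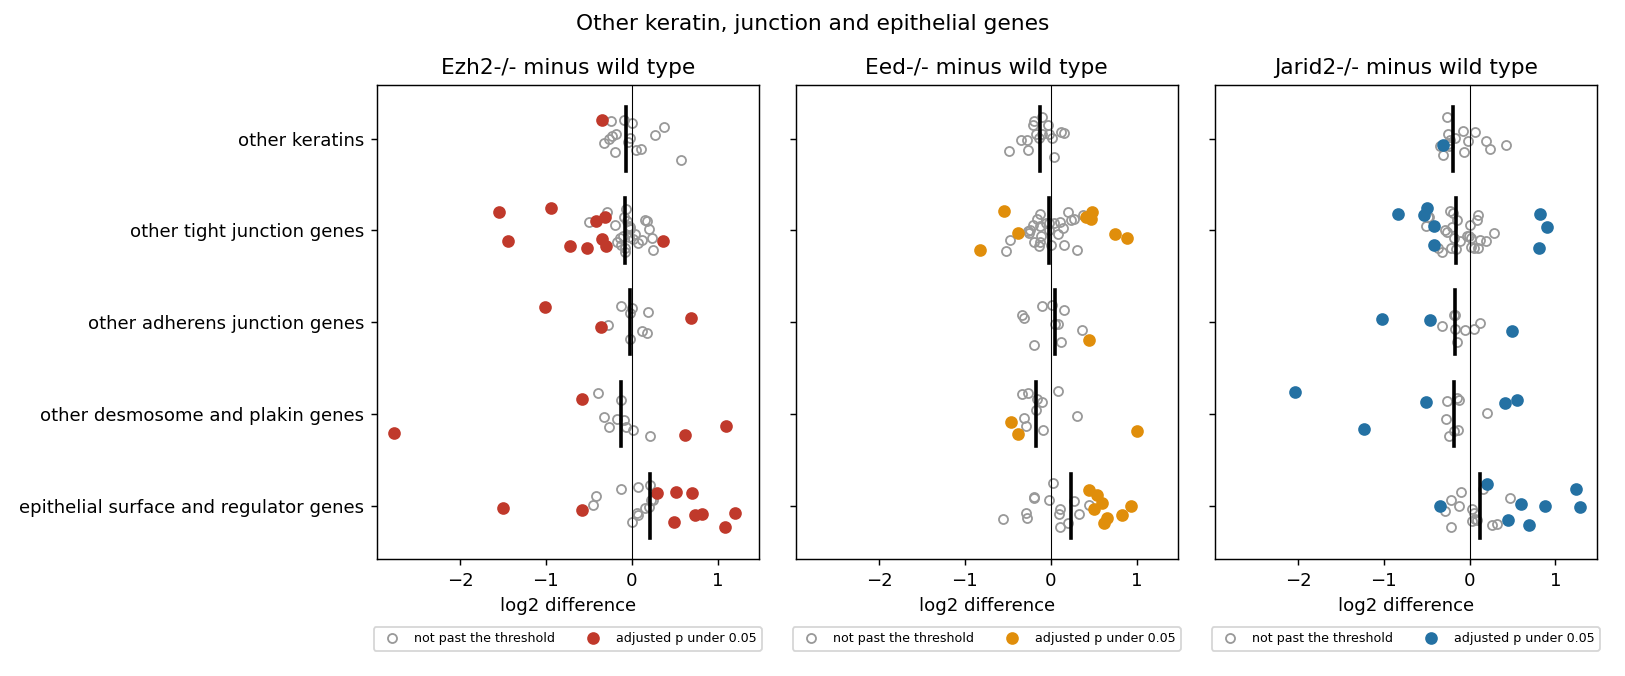
Log2 difference from wild type (horizontal axis) of the 97 other epithelial genes in 3 panels (Ezh2-/-, Eed-/-, Jarid2-/- as labelled), by list from top to bottom. Each circle is 1 gene, filled at an adjusted p under 0.05, and black bars are list medians; Dsc2 is the leftmost point of the desmosome row in the Ezh2-/- panel (-2.77) and the Jarid2-/- panel (-2.03).

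Of 16 other keratins measured, 1 passed in Ezh2-/- cells (Krt6a), 0 in Eed-/- cells and 1 in the arrays labelled Jarid2-/- (Krt16). That is 6.25% lower in Ezh2-/- cells and in the arrays labelled Jarid2-/-, beside 17.9% and 14.2% of all genes. Both keratins were lower by less than 0.4 on the log2 scale. Their calls ended when array medians were made equal and without most single arrays, to -0.21 for Krt6a without Ezh2-/- replicate 2 and -0.26 for Krt16 without Jarid2-/- replicate 2. Between 6 and 9 of the 16 read within the negative control range on each array, Krt15 and Krt20 among them. Under each of the other scalings 1 keratin rose in their place: Krt80 in Ezh2-/- cells, by 0.71 with quantile normalization and 0.66 with equal array medians (adjusted p = 0.0306 and 0.0347), and Krt17 in the arrays labelled Jarid2-/-, by 0.50 and 0.49 (adjusted p = 0.0402 and 0.0407), both named after their values were seen. On the values as deposited their adjusted p was 0.0613 and 0.0562.

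The desmosome genes moved in both directions. Dsc2, a desmosomal cadherin, read 64.2 and 31.6 in Ezh2-/- cells, 199 and 523 in Eed-/- cells, 81.3 and 92.7 in the arrays labelled Jarid2-/-, and 454 and 360 in wild type. It fell in Ezh2-/- cells (log2 -2.77, SE 0.38, adjusted p = 0.00105) and in the arrays labelled Jarid2-/- (-2.03, SE 0.38, adjusted p = 0.00656), where its signal was within the negative control range and the size is not exact. Dsg2, another desmosomal cadherin, rose in Ezh2-/- cells, with 4398 and 4438 against 1874 and 2238 in wild type (log2 1.10, SE 0.14, adjusted p = 0.000777), and in Eed-/- cells, with 3751 and 4565 (1.01, adjusted p = 0.00235). It read 2627 and 3424 in the arrays labelled Jarid2-/- (0.55, adjusted p = 0.0271). That call ended without Jarid2-/- replicate 2 (0.36), wild type replicate 1 or either Ezh2-/- array, and in the limma fit without intensity trend (adjusted p = 0.0506). Pkp2, a plakophilin of the desmosomal plaque, fell in all 3 mutants, by 0.58 in Ezh2-/- cells, by 0.38 in Eed-/- cells and by 0.51 in the arrays labelled Jarid2-/- on the log2 scale, and its call in Eed-/- cells ended without Eed-/- replicate 1 (-0.31, adjusted p = 0.111) and without wild type replicate 1 (-0.36, adjusted p = 0.0545). Pkp3 rose in Ezh2-/- cells (0.62) and in the arrays labelled Jarid2-/- (0.41), the second call ending without Jarid2-/- replicate 2 (0.34) or either wild type array. Perp, a desmosome-associated membrane protein gene, fell in the arrays labelled Jarid2-/-, with 843 and 968 against 2628 and 1751 in wild type (log2 -1.23, adjusted p = 0.00254). Dst, a plakin, fell in Eed-/- cells by 0.46 (adjusted p = 0.045), a call that 8 of the 15 alternative settings ended.

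Of 35 tight junction genes, 1 was higher and 9 lower in Ezh2-/- cells, 5 higher and 3 lower in Eed-/- cells, and 3 higher and 5 lower in the arrays labelled Jarid2-/-. As shares 2.86%, 14.3% and 8.57% were higher, beside 9.67%, 7.88% and 5.99% of all genes. Lower were 25.7%, 8.57% and 14.3%, beside 17.9%, 11.1% and 14.2%. In Ezh2-/- cells the split was 2 higher and 6 lower with quantile normalization and 1 and 5 with equal array medians. Patj, a polarity scaffold of the Crumbs complex, and Marveld2, the tricellular junction protein tricellulin, fell in Ezh2-/- cells by 1.55 and 1.44 on the log2 scale (adjusted p = 0.000932 and 0.00148), into the negative control range. The polarity gene Pard3 read 640 and 571 in Ezh2-/- cells, 683 and 692 in Eed-/- cells, 660 and 720 in the arrays labelled Jarid2-/-, and 933 and 1084 in wild type, and fell in each. The differences were -0.72, -0.54 and -0.53 (SE 0.11 each), and the call ended in Eed-/- cells without either Eed-/- array or wild type replicate 2 (adjusted p = 0.0565 to 0.0632) and in the arrays labelled Jarid2-/- without replicate 1 (adjusted p = 0.0565). Magi1, another scaffold, rose in Eed-/- cells (0.89) and in the arrays labelled Jarid2-/- (0.82), Jam2 (0.75) and Jam3 (0.48) rose in Eed-/- cells, and Cgnl1 rose in Ezh2-/- cells (0.36) and in the arrays labelled Jarid2-/- (0.81), where Tjp1, encoding ZO-1, fell by 0.41. Mpdz, a multi-PDZ scaffold, fell by 0.53 in Ezh2-/- cells and rose by 0.41 in Eed-/- cells (adjusted p = 0.0495). The call of Tjp1 ended without Jarid2-/- replicate 1 (-0.28), that of Mpdz in Ezh2-/- cells without Ezh2-/- replicate 2 (-0.41) or wild type replicate 2 (adjusted p = 0.056), and that of Jam3 without wild type replicate 2 (0.40) or either Eed-/- array. The call of Mpdz in Eed-/- cells ended under 9 of the 15 alternatives, without each Ezh2-/-, Eed-/- and wild type array among them (adjusted p up to 0.192), and that of Cgnl1 in Ezh2-/- cells without any 1 Ezh2-/- or wild type array (adjusted p = 0.0614 to 0.161).

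Of the adherens junction genes, Vcl, which encodes the actin linker vinculin, fell in Ezh2-/- cells, with 1955 and 1857 against 4175 and 3575 in wild type (log2 -1.01, SE 0.14, adjusted p = 0.00104), and in the arrays labelled Jarid2-/-, with 1708 and 2116 (-1.02, SE 0.14, adjusted p = 0.00148). Nectin2 rose in Ezh2-/- cells (0.69) and in the arrays labelled Jarid2-/- (0.49). Nectin3 fell by 0.36 in Ezh2-/- cells and rose by 0.45 in Eed-/- cells. Cdh3, which encodes P-cadherin, fell by 0.46 in the arrays labelled Jarid2-/- (adjusted p = 0.0394). Among these calls, Nectin2 in the arrays labelled Jarid2-/- ended without either of its arrays or wild type replicate 2 (0.35). Nectin3 in Eed-/- cells ended without Eed-/- replicate 1 (0.37), and in Ezh2-/- cells under either scaling or without any 1 Ezh2-/- or wild type array (adjusted p = 0.0545 to 0.167). Cdh3 ended under 9 of the 15 alternatives, at -0.28 without Jarid2-/- replicate 2.

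The list of epithelial surface and regulator genes, 22 of them measured, had 8 higher and 2 lower in Ezh2-/- cells, 8 and 0 in Eed-/- cells, and 7 and 1 in the arrays labelled Jarid2-/-, with medians of 0.21, 0.24 and 0.12. As shares these are 36.4% higher in Ezh2-/- and in Eed-/- cells and 31.8% in the arrays labelled Jarid2-/-, beside 9.67%, 7.88% and 5.99% of all genes. Lower were 9.09%, 0% and 4.55%, beside 17.9%, 11.1% and 14.2%. Klf5, a zinc finger factor of epithelial and stem cells, read 10343 and 10416 in Ezh2-/- cells, 6649 and 6641 in Eed-/- cells, 7300 and 8550 in the arrays labelled Jarid2-/-, and 4987 and 4748 in wild type. It rose by 1.09 (adjusted p = 2.07e-05), 0.45 (adjusted p = 0.00456) and 0.70 (adjusted p = 0.000425). Ap1m2, the epithelial clathrin adaptor subunit, rose in Ezh2-/- cells (1.20, adjusted p = 7.27e-05), Eed-/- cells (0.51, adjusted p = 0.00998) and the arrays labelled Jarid2-/- (1.28, adjusted p = 9.67e-05). Rab25, a small GTPase of apical recycling, rose in Ezh2-/- cells (0.82) and the arrays labelled Jarid2-/- (1.24), with -0.20 in Eed-/- cells (adjusted p = 0.282). Spint1, a protease inhibitor, rose in Ezh2-/- cells (0.73) and Eed-/- cells (0.60). Klf4 rose by 0.50 in Ezh2-/- cells, 0.94 in Eed-/- cells and 0.88 in the arrays labelled Jarid2-/-, and Grhl1, a Grainyhead factor, by 0.51, 0.83 and 0.44. Tfap2a, an AP-2 factor, rose by 0.62 in Eed-/- cells and fell by 0.34 in the arrays labelled Jarid2-/- (adjusted p = 0.0425). The last call ended under both scalings and without each of the 8 arrays (adjusted p = 0.0558 to 0.17). Those of Klf4 in Ezh2-/- cells ended without either Ezh2-/- array or wild type replicate 1 (adjusted p = 0.077 to 0.103), of Grhl1 in Ezh2-/- cells without Ezh2-/- replicate 2 (adjusted p = 0.0552) and in the arrays labelled Jarid2-/- without replicate 2 or wild type replicate 1 (adjusted p = 0.0859 and 0.0547), and of Ap1m2 in Eed-/- cells without Eed-/- replicate 1 (adjusted p = 0.0574). Tfap2c, an AP-2 factor of trophectoderm and germ cells, fell in Ezh2-/- cells, with 1382 and 1286 against 3202 and 4484 in wild type (log2 -1.50, SE 0.19, adjusted p = 0.000717). It did not pass in the other mutants, with 4162 and 3963 in Eed-/- cells (0.10, adjusted p = 0.746) and 3185 and 4721 in the arrays labelled Jarid2-/- (0.03, adjusted p = 0.923).

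Some markers of fibroblasts and mesenchymal cells were low where the keratins were low, and their part in the keratin differences was not tested. The summed intensity of 11 fibroblast and feeder cell markers was 1516 and 1431 in Ezh2-/- cells, 4431 and 7316 in Eed-/- cells, 2088 and 2144 in the arrays labelled Jarid2-/-, and 8819 and 6872 in wild type. Of the 11, 6 were lower in Ezh2-/- cells, 2 in Eed-/- cells and 5 in the arrays labelled Jarid2-/- (54.5%, 18.2% and 45.5%, beside 17.9%, 11.1% and 14.2% of all genes). In each mutant 0 were higher, beside 9.67%, 7.88% and 5.99% of all genes. The sum of the 4 member keratins was 2734 and 1852 in Ezh2-/- cells, 7151 and 19168 in Eed-/- cells, 2578 and 2576 in the arrays labelled Jarid2-/-, and 24527 and 15769 in wild type. In both sums the Ezh2-/- arrays and the arrays labelled Jarid2-/- were the lowest 4, and Eed-/- replicate 2 lay between the wild type arrays. Tagln, a smooth muscle actin-binding protein gene of the fibroblast list, read 402 and 312 in Ezh2-/- cells, 3000 and 5667 in Eed-/- cells, 989 and 1110 in the arrays labelled Jarid2-/-, and 6357 and 3556 in wild type. Without Tagln, a sum added after seeing the data, the other 10 markers came to 1114 and 1118 in Ezh2-/- cells, 1431 and 1649 in Eed-/- cells, 1100 and 1034 in the arrays labelled Jarid2-/-, and 2463 and 3316 in wild type, so that both Eed-/- arrays lay below wild type and the wild type arrays changed order. Of the markers that define fibroblasts, Dcn, Lum and Postn read within the negative control range on all 8 arrays, while Col1a1 read 432 and 548 in wild type and 20.4 to 89.9 in the mutants.

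Of 12 mesenchymal genes, 0 were higher and 8 lower in Ezh2-/- cells, and 2 higher and 3 lower in Eed-/- cells. In the arrays labelled Jarid2-/- 0 were higher and 6 lower. As shares 0%, 16.7% and 0% were higher, beside 9.67%, 7.88% and 5.99% of all genes. Lower were 66.7%, 25% and 50.0%, beside 17.9%, 11.1% and 14.2%. Cdh11, Twist2 and Zeb2 among the 8, and Snai2 among the 2 higher in Eed-/- cells, read within the negative control range on all arrays. Acta2 read 332 and 294 in Ezh2-/- cells, 932 and 1999 in Eed-/- cells, 325 and 282 in the arrays labelled Jarid2-/-, and 3959 and 2879 in wild type. Vim, which encodes the intermediate filament of mesenchymal cells, fell by 1.13 in Ezh2-/- cells, by 1.04 in Eed-/- cells and by 1.81 in the arrays labelled Jarid2-/-. Fn1, a bright gene of this list, did not follow the keratins in the arrays labelled Jarid2-/-. It read 8448.5 and 11102 there and 8986 and 10978 in wild type (log2 -0.04, limma adjusted p = 0.874). The log2 difference of Fn1 was -1.04 in Ezh2-/- cells and -0.42 in Eed-/- cells. Snai1 read within the negative control range on all arrays.

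Of 12 trophectoderm markers, 0 were higher and 2 lower in Ezh2-/- cells, and 3 higher and 0 lower in Eed-/- cells. In the arrays labelled Jarid2-/- 0 passed either way. As shares 0%, 25% and 0% were higher, beside 9.67%, 7.88% and 5.99% of all genes. The shares lower were 16.7%, 0% and 0%, beside 17.9%, 11.1% and 14.2%. The 3 higher in Eed-/- cells were Eomes (0.75), Gata2 (0.77) and Gata3 (2.16). Gata3 read 232 and 397 in Eed-/- cells against 99.9 and 28.3 in wild type. Its wild type signal was within the negative control range, so that the size of its difference is not exact. Cdx2 read 177 to 246 over all arrays, and Elf5 and Tpbpa were within the negative control range. The list's sum was 4171 and 4474 in Ezh2-/- cells, 4462 and 4969 in Eed-/- cells, 3904 and 3444 in the arrays labelled Jarid2-/-, and 4899 and 4193 in wild type. Of 13 primitive endoderm markers, 1 was higher and 5 lower in Ezh2-/- cells, 6 higher and 1 lower in Eed-/- cells, and 2 higher and 5 lower in the arrays labelled Jarid2-/-. As shares 7.69%, 46.2% and 15.4% were higher, beside 9.67%, 7.88% and 5.99% of all genes. Lower were 38.5%, 7.69% and 38.5%, beside 17.9%, 11.1% and 14.2%.

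**Figure D5:**
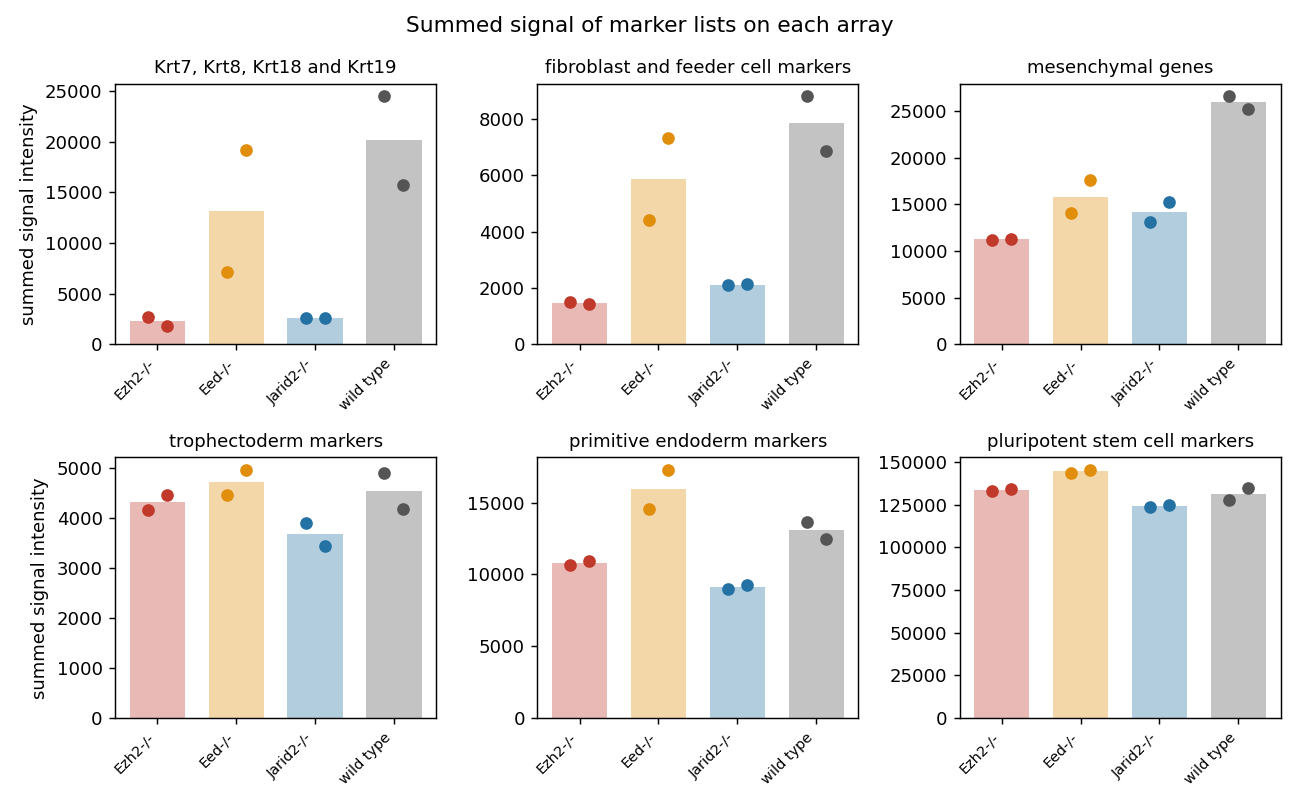
Summed signal intensity (linear axis from 0) of each marker list, 1 panel per list, by group (Ezh2-/-, Eed-/-, Jarid2-/- as labelled, wild type). Points are arrays and bars group means (n = 2); the 4 member keratins stand at 2734 and 1852 in Ezh2-/- cells and at 24527 and 15769 in wild type, and the fibroblast and feeder cell markers at 1516 and 1431 against 8819 and 6872.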

How the data were processed

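Mouse embryonic stem cells of 4 genotypes, 2 arrays each, were profiled on Affymetrix Mouse430A_2 arrays from total RNA taken with Trizol. The deposited value table holds linear intensity per probe set; its background correction and normalization are not given in the sources used here. A second deposited table, described by its header as a dChip model-based signal, has 12 columns that match no sample label and was not used. The 64 control probe sets were left out. Values were raised to at least 1, 16 was added and log2 was taken. Limma 3.58.1 in R 4.3.3 (lmFit, eBayes with an intensity trend) fitted a mean per genotype over all 8 arrays, and two-sided p-values were adjusted by Benjamini and Hochberg over 22626 probe sets, with a threshold of 0.05. Genes were named from the platform table where a probe set had 1 symbol. The script was tested on simulated data with changes set in the Ezh2-/- arrays. It recovered 42% of 1.5-fold, 80% of 2-fold and 98% of 4-fold changes, and 12 of its 162 calls were at unchanged probe sets. The members and all gene lists were chosen with earlier results of these data known. From each list of other epithelial genes up to 4 per mutant were named, those with the smallest p whose brighter mean exceeded the highest negative control, and likeness was named for 8 genes of Krt8 and 5 of Cdh1. Genes taken for 1 mutant were also described in the other mutants, and those further calls are outside the 44 differences counted below. There were 15 alternatives: 2 scalings, 2 pseudocounts (1 and 64), a filter on dim probe sets, no intensity trend, the replicate number as a block, and each array left out. A marker sum without Tagln was added after seeing the data.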

Additional observations from a re-analysis of the deposited data

How the results depend on the processing

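For the 84 differences of member probe sets, of 1254 values under the 15 alternatives 1242 moved by less than the spread between replicates and 12 by more. This count cannot show stability. Leaving out 1 array moves a group mean by only part of the gap between its replicates, so those settings could not exceed the spread. The dim filter, the fit without trend and the replicate block leave the difference itself unchanged. Krt18 in Eed-/- cells, at -0.544 from wild type, ran between -1.305 and 0.218 without 1 array. Of the 44 differences of other epithelial genes that the rule for naming took, 30 passed under every alternative and 14 ended under at least 1, with 0 reversed. Without 1 array, probe sets called numbered 2655 to 6167 in Ezh2-/- cells (6012 with all arrays), 1801 to 4283 in Eed-/- cells (4213) and 2728 to 4149 in the arrays labelled Jarid2-/- (4485), and other epithelial genes called numbered 15 to 28 (28), 12 to 22 (20) and 18 to 24 (25). With the replicate block, probe sets called were 7005, 5275 and 5507 and other epithelial genes 31, 24 and 30. The labels do not say that a replicate number marks a shared culture, and the deviations of same-numbered arrays had r = 0.411 for Jarid2-/- with wild type, 0.244 for Jarid2-/- with Eed-/-, and 0.008 to 0.05 for the other pairs. A group left with 1 array was assumed to vary like the others. Signals within the negative control range, as for Krt7 in Ezh2-/- cells and in the arrays labelled Jarid2-/-, give no exact difference.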
